A study of Homo sapiens with 12 samples.

Results

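CLK1, CLK2, CLK3 and CLK4 (CDC-like kinases) and SRPK1 and SRPK2 (serine-arginine protein kinases) were examined in 2 human prostate cancer cell lines, PC3E and GS689.Li (written GS689). The genes were chosen by name, and exon events of the tables were given to them by strand, exon length and both intron lengths in GENCODE release 29. In RNA-seq, 72 of 114816 exon events matched the 6 genes, out of 12974 named genes; in RASL-seq, a targeted assay that counts ligated probe pairs across splice junctions, 1 of 2023 events did, in CLK3. The RASL-seq table lists plus-strand events only, and CLK3 is the 1 gene of the 6 on that strand.

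Both lines come from PC3 cells and are labelled wild type; PC3E is known as the epithelial one and GS689 as the mesenchymal one. They were grown in the same medium with serum and G418, plated in dishes and harvested after overnight incubation. Each line had 3 libraries per assay, and the labels do not say that these came from separate cultures, so a p-value here reflects library-to-library spread alone, and that spread can be technical. The RASL-seq columns name the lines. The RNA-seq table holds 2 numbered sets of 3 libraries with no line named, so RNA-seq values are given per library, with no test and no direction between lines. In RASL-seq the 4 tested epithelial genes (LSR, OCLN, SPINT2, LLGL2) were lower in GS689 and vimentin (VIM) was higher (limma-voom, adjusted p from 4.71e-09 to 0.00407). KLK3 and PTPRC, markers of luminal prostate and of blood cells, had no tested total.

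The splicing factors called SR proteins carry long runs of arginine and serine, and phosphates on those serines set where they are in the cell and how they act on splicing. SRPKs phosphorylate SR proteins mostly in the cytoplasm, which lets them be imported, and CLKs phosphorylate them further in the nucleus and release them from nuclear speckles. CLK genes are themselves spliced in a way known to respond to CLK activity and to stress: when exon 4 is left out, the reading frame shifts and the kinase domain is lost.

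In the principal annotated transcript of each CLK gene, exon 4 is coding and its length is 1 more than a multiple of 3. Leaving it out gives a premature stop in each of the 4 genes. The exons are shown because the results turn on them, 5′ to 3′ and from the GENCODE 29 transcripts. Capitals in CLK4 mark bases that differ from CLK1, and capitals in CLK2 mark the 3 bases by which its longer form (88 nt) exceeds its shorter one (85 nt).
CLK1 exon 4: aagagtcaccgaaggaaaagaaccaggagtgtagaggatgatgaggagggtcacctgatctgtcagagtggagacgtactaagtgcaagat
CLK4 exon 4: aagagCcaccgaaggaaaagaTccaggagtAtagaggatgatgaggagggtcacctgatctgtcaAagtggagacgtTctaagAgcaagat
CLK2 exon 4: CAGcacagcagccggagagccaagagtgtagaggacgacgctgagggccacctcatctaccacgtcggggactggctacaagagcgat
CLK3 exon 4: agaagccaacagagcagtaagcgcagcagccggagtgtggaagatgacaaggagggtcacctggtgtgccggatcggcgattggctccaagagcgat

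CLK1 and CLK4 exon 4 are both 91 nt and identical at 85 of 91 positions (93.4%). Identity in global alignment was between 60.4% and 64.3% for the other 5 pairs, CLK3 exon 4 being 97 nt. GC content was 48.4% in CLK1 and 47.3% in CLK4, against 61.2% in CLK2 (85 nt form) and 58.8% in CLK3. On hg19 the exons lie at chromosome 2, 201724848 to 201724938 (CLK1, minus strand), chromosome 1, 155238499 to 155238586 (CLK2, minus strand, the shorter form ending at 155238583), chromosome 15, 74914461 to 74914557 (CLK3, plus strand) and chromosome 5, 178044345 to 178044435 (CLK4, minus strand).

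Without exon 4 the first stop comes in exon 5 of CLK1, CLK2 and CLK4 and in exon 6 of CLK3, shown here with the stop in capitals.
CLK1 exon 5: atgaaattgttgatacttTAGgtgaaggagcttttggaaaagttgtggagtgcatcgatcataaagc
CLK2 exon 5: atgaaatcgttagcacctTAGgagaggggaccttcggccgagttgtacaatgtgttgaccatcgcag
CLK4 exon 5: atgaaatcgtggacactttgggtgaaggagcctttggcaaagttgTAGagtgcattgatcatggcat
CLK3 exon 6: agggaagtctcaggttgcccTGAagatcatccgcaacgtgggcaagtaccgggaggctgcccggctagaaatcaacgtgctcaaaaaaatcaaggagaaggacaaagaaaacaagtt
The stop starts at base 19 of exon 5 in CLK1 and CLK2, at base 46 of exon 5 in CLK4 and at base 21 of exon 6 in CLK3. Of 484 codons in CLK1, 498 in CLK2, 490 in CLK3 and 481 in CLK4, the skipped forms keep 136, 139, 152 and 143. The stop lies between 740 bases (CLK3) and 809 bases (CLK1 and CLK2) before the last exon junction. GENCODE lists 1 transcript of CLK1 that joins exon 3 to exon 5 and classes it as subject to nonsense-mediated decay, the pathway that degrades RNA with an early stop; such transcripts number 1 in CLK2, 4 in CLK3 and 2 in CLK4, of which 0, 2 and 1 have that class.

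The inclusion level of an event is the percent of inclusion among its inclusion and skipping counts, each divided by its effective length. It refers to an exon between given flanking exons and not to all RNA of a gene, so an exon can have several levels. Counting error is given as an exact binomial 95% interval, and it covers counting error only. CLK1 exon 4 stood at 86.6%, 47.4% and 81.7% in libraries 1 to 3 of set 1 and at 89.6%, 81.6% and 80.1% in set 2. Library 2 of set 1 was the low one, with 182 inclusion and 107 skipping counts and an interval of 41.3% to 53.6%; the lowest bound in the other 5 libraries was 76.1%. The medians of both sets were nearly the same, 81.7% and 81.6%, and the sets overlapped with or without that library.

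CLK4 exon 4 was low in the same library. Its level was 83.2%, 63.0% and 85.9% in set 1 and 83.2%, 83.8% and 77.1% in set 2. The interval for library 2 of set 1, from 119 inclusion and 37 skipping counts, was 53.9% to 71.7%, and it overlapped that of library 3 of set 2 only (71.3% to 82.2%). Both sets had a median of 83.2%, and they overlapped with or without library 2.

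CLK2 exon 4 instead separated the sets. The 88 nt form stood at 90.2%, 91.2% and 92.2% in set 1 and at 76.4%, 80.2% and 78.0% in set 2. The 85 nt form gave 86.5%, 88.3% and 89.9%, then 72.8%, 76.1% and 71.3%. Every library of set 1 lay above every library of set 2, with a distance of 10.0 and 10.4 percentage points between the nearest libraries, and library 2 of set 1 lay between the other 2 libraries of its set. Skipping counts, shared by both forms, were 29, 33 and 27 in set 1 and 41, 37 and 36 in set 2, while inclusion counts of the 88 nt form were 499, 635 and 591 against 247, 279 and 237. The 2 forms also share the splice site at the end of the exon, so they are not independent. Each level sets a form against skipping alone, with the other form left out, so it is not that form's share.

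CLK3 exon 4 was kept in nearly all RNA. In RNA-seq it stood at 97.6%, 96.2% and 95.7% in set 1 and at 93.0%, 97.6% and 94.1% in set 2, which overlapped. The same event is the 1 RASL-seq event of the 6 genes. There PC3E had 62, 92 and 101 inclusion counts and 0 skipping counts in replicates 1 to 3, and GS689 had 78, 78 and 60 with 0, 0 and 1 skipping counts. Over the PC3E libraries 0 of 255 counts were of the skipped form, which allows a share of up to 1.18% (3 counts; the exact binomial 95% upper bound is 1.44%); in GS689 it was 1 of 217, or 0.461% (exact binomial 95% interval 0.0117% to 2.54%). Mean inclusion was 100% in PC3E and 99.5% ± 0.946 in GS689 (SD, n = 3 per line), a difference of -0.546 points that rests on 1 count. With under 10 counts of the rarer form the event did not enter the inclusion test, in which 64 of 1124 events (5.69%) were called. In RASL-seq counts the skipped form was thus at or below a few percent in both lines, and a difference within these bounds was not detectable at this depth. The bounds cover counting error only. RNA-seq inclusion of the same event, 93.0% to 97.6%, lay below the RASL-seq mean of either line, so the bounds do not limit the skipped share in RNA-seq. Why the assays differ was not tested. RASL-seq counts were not length-corrected, and the assays' levels were not put on the same scale.

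**Figure D1:**
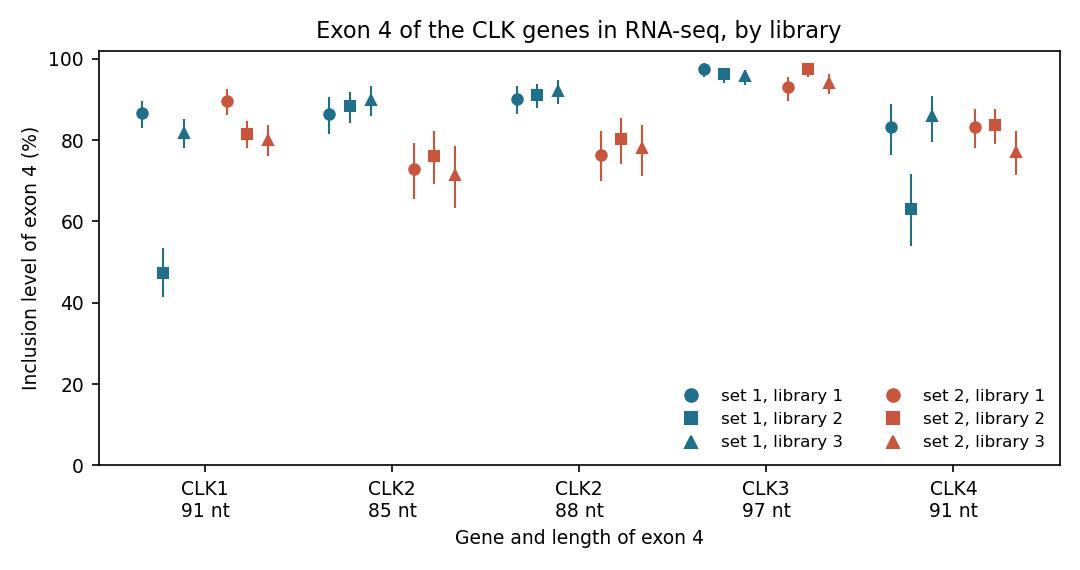
Inclusion level of exon 4 of the CLK genes in RNA-seq (y axis, percent), 1 point per library with its exact binomial 95% interval, set 1 in blue and set 2 in red, the x axis giving gene and exon length. CLK1 and CLK4 are lowest in library 2 of set 1 (47.4% and 63.0%), and the sets of CLK2 do not overlap.

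Library 2 of set 1 stood apart more widely. Of the 12188 events of the table with a median inclusion between 5% and 95% and at least 20 counts in every library, here called alternative, it gave the lowest or highest value of all 6 libraries in 45.4%; each of the other 5 did so in 28.7% to 32.3%. A further comparison was added after the values were seen, with the library and the cut taken from CLK1 exon 4 itself. Its counts and shares are thus descriptions and test nothing. Among 6577 alternative events with at least 100 counts in every library, 3 lay 36.8 points or more from the mean of the set's other 2 libraries. They were CLK1 exon 4 and exons of DHX34 (an RNA helicase, 38.6 points higher) and MYCBP2 (a ubiquitin ligase, 38.0 points lower), the latter 2 named after their values were seen. CLK4 exon 4 lay -21.6 points from that mean, a distance that 1.29% of these events reached. CLK2 (88 nt form) and CLK3 lay within 0.42 points. Table totals ran from 93842790 to 120853566, and library 2 of set 1 had 112641930, so its total was not the lowest. These totals can hold the same read repeatedly and do not give read depth. What sets this library apart was not tested.

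Of the 72 events of the 6 genes, in 50 distinct exons (38 coding, 6 partly coding, 6 non-coding), 65 had at least 20 counts in every library. Inclusion was above 95% in 45 of these and below 5% in 7, leaving 13 alternative events. In 7 of the 13 the sets did not overlap, 2 with set 2 above and 5 with set 1 above. Over all alternative events of the table this held for 23.9%, with set 2 above in 10.1% and set 1 above in 13.8%. Several of the 13 share an exon or a skipping junction, so they are not 7 separate observations; with the 85 and 88 nt forms of CLK2 exon 4, which the 50 count as separate exons, taken as 1, they lie in 6 exons. Only 2, both of CLK2 exon 4, had sets at least 5 points apart, against 7.93% over the table. The 13 had a median absolute difference between set medians of 5.34 points, against 3.87 over all alternative events.

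CLK2 also had a joint skip of exons 7 and 8 (167 and 95 nt), which encode part of the kinase domain. Measured against the junction that leaves out both, exon 7 stood at 90.2%, 92.6% and 92.8% in set 1 and 87.3%, 87.8% and 85.9% in set 2. Exon 8, against the same junction, stood at 89.8%, 92.5% and 94.0%, then 87.8%, 88.6% and 82.8%. Both separated the sets, by 2.38 and 1.20 points between nearest libraries, and the counting intervals of those libraries overlap.

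CLK4 had alternative exons just before exon 3 of its principal transcript as well. A 59 nt non-coding exon there, annotated in a transcript that retains an intron, was included at 19.0%, 35.9% and 20.2% in set 1 and 21.3%, 16.4% and 20.1% in set 2. An 836 nt exon with the same 3′ end, annotated in transcripts subject to nonsense-mediated decay, stood at 12.4%, 23.6% and 13.1%, then 10.9%, 9.71% and 15.2%. Library 2 of set 1 was highest for both, so the library with the least CLK4 exon 4 had the most of these exons; both share 1 skipping junction. Measured from a nearer 5′ exon instead, the 836 nt exon rested on 27 to 63 counts per library, and its sets did not overlap (100%, 94.9% and 100% against 83.3%, 88.1% and 93.7%), though the intervals did.

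SRPK2 has a pair of neighbouring 93 nt coding exons, exon A at chromosome 7, 104766229 to 104766321, and exon B at 104766695 to 104766787 (hg19, minus strand, B first in the RNA). They are shown with the 93 nt exon of SRPK1 at chromosome 6, 35806114 to 35806206, in lower case throughout because no base is singled out.
SRPK2 exon A: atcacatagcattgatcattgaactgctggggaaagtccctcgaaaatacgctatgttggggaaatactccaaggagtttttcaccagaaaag
SRPK2 exon B: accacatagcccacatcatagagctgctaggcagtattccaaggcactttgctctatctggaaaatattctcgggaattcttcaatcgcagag
SRPK1 exon 15: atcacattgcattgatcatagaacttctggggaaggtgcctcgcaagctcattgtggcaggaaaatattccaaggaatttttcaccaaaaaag
Exons A and B were identical at 57 of 93 positions (61.3%). Exon A matched the SRPK1 exon at 74 (79.6%) and exon B at 56 (60.2%), while the principal SRPK2 transcript carries exon B.

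Most junction counts leaving SRPK2 exon B went to the last exon, past exon A. Against that junction, exon A was included at 16.8%, 9.17% and 13.2% in set 1 and 12.4%, 7.87% and 7.29% in set 2, and the sets overlapped. Skipping of both exons was at 0 to 2 counts per library. Against the junction that enters exon A from the exon upstream, exon B stood at 81.0%, 89.7% and 87.6% in set 1 and 93.1%, 93.6% and 92.4% in set 2, which did not overlap, with 31, 14 and 22 skipping counts against 13, 11 and 13. Inclusion counts of an exon also come from RNA that holds that exon alone, so these levels are not shares of exon pairs.

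Near its 5′ end SRPK2 has a partly coding 64 nt exon (chromosome 7, 104909253 to 104909316). It stood at 14.5%, 12.4% and 19.5% in set 1 and 22.3%, 24.3% and 22.1% in set 2, without overlap, on 91 to 184 counts per library. In SRPK1 a partly coding 96 nt exon (chromosome 6, 35872656 to 35872751) was included at 2.52% to 5.77% with one splice site of the next exon and at 20.9% to 42.6% with another nearby, the latter on 44 to 91 counts. Its sets overlapped in the second case. The other measured SRPK1 exons were kept almost fully: 10 of the 12 events had a median above 95%.

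**Figure D2:**
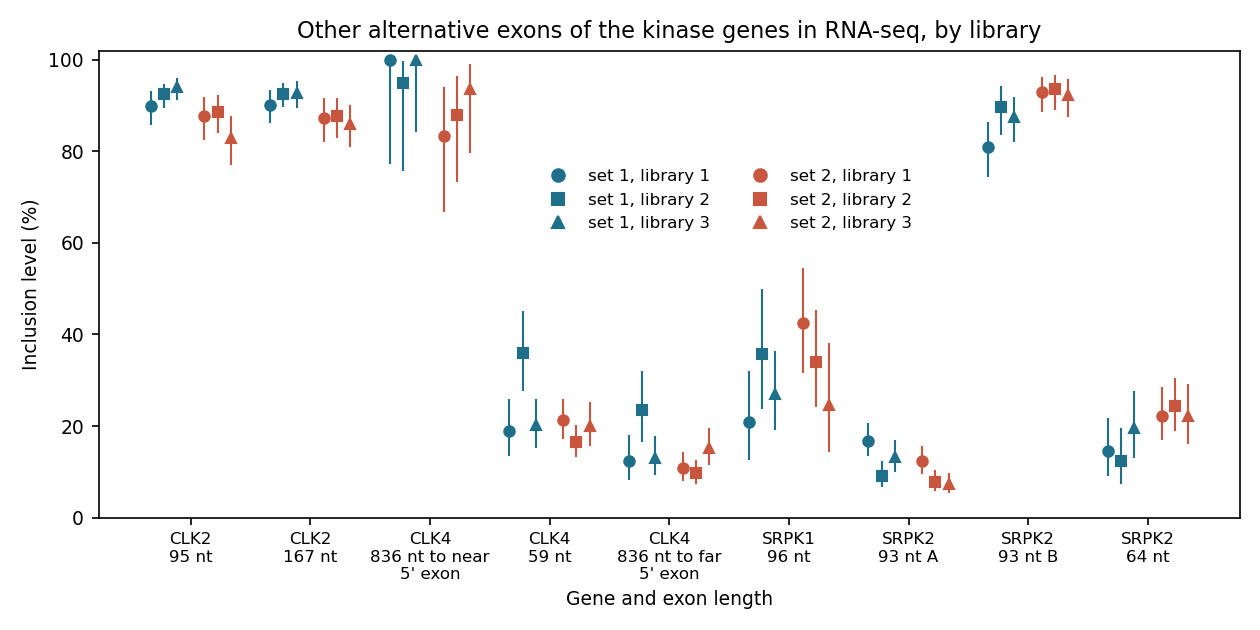
Inclusion level (y axis, percent) of the other alternative exons of the 6 genes in RNA-seq (x axis, gene and exon length), 1 point per library with its exact binomial 95% interval. The 59 nt and 836 nt CLK4 exons are highest in library 2 of set 1 against the far 5′ exon, and the SRPK2 exon of 64 nt is higher in all 3 libraries of set 2.

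Totals per gene are inclusion plus skipping counts summed over a gene's events, scaled so that this sum over the table is 1000000 (CPM), and compare libraries within a gene only. In bulk RNA, fewer cells with a transcript and less of it per cell cannot be told apart. CLK4 had 9.11, 7.88 and 9.83 CPM in set 1 and 22.0, 25.8 and 19.3 in set 2, a ratio of set medians of 2.41. SRPK2 had 19.4, 17.3 and 17.1, then 29.1, 28.2 and 25.0, a ratio of 1.63. Both genes were higher in every library of set 2.

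CLK1 had 74.6, 53.4 and 81.4 CPM in set 1 and 87.7, 116 and 86.3 in set 2. Its sets did not overlap, but the nearest libraries (81.4 and 86.3) lay closer together than the lowest and highest library of either set. The lowest total was again in library 2 of set 1, where CLK1 exon 4 was lowest; the log2 ratio of medians was 0.23 with it, 0.17 without it and between 0.17 and 0.45 leaving out any 1 library. Under trimmed means of log ratios the sets of CLK1 were only 0.011 CPM from overlapping. CLK2 went the other way, with 81.0, 125 and 97.3 in set 1 and 72.5, 78.5 and 68.1 in set 2, a ratio of 0.745. For CLK2 too the nearest libraries (81.0 and 78.5) lay closer together than the lowest and highest library of either set. Its highest total was in library 2 of set 1.

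CLK3 and SRPK1 overlapped between the sets. CLK3 had 52.6, 68.2 and 64.9, then 55.2, 68.8 and 65.0 CPM. SRPK1 had 141, 104 and 129, then 145, 118 and 96.5. Thus 3 of the 6 genes lay higher in set 2 and 1 lower, while over all 10813 genes with at least 20 counts in every library 48.3% did not overlap, 29.3% with set 2 above and 19.1% with set 1 above. The median log2 ratio of set 2 over set 1 was 0.12 for the 6 genes and 0.11 over all genes (0.01 with trimmed means of log ratios, under which no gene of the 4 changed direction).

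**Figure D3:**
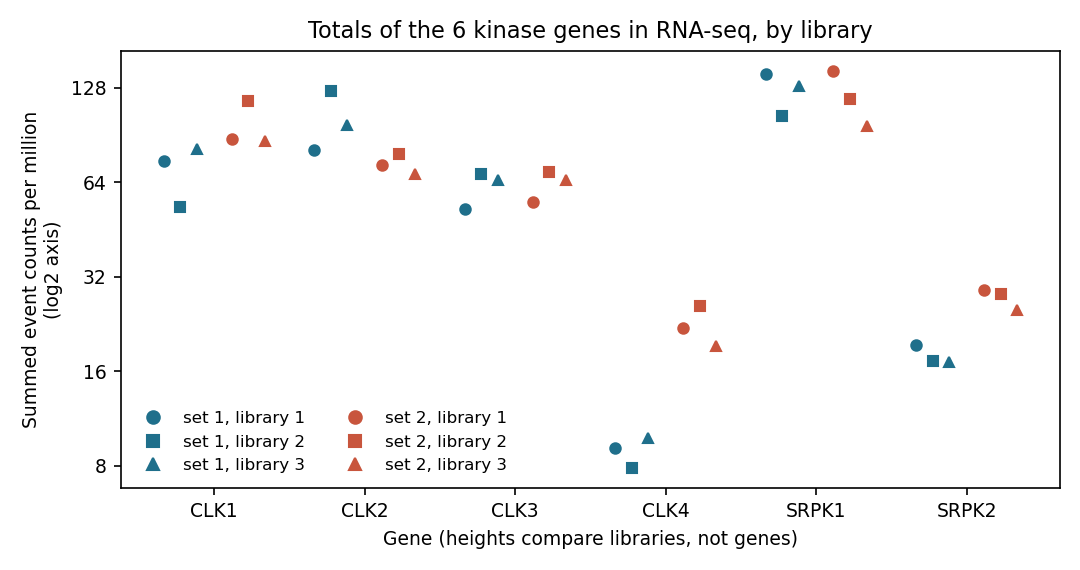
Summed event counts (y axis, CPM, log2 scale) of the 6 kinase genes in RNA-seq, 1 point per library, heights comparing libraries within a gene. CLK4 and SRPK2 are higher in all libraries of set 2, CLK2 in all libraries of set 1, and CLK3 and SRPK1 overlap.

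For CLK3, RASL-seq allowed a test between the lines on the total of its 1 event. The total was 73.2, 119 and 113 CPM in PC3E and 79.9, 94.4 and 98.7 in GS689, with means of 102 ± 25.0 and 91.0 ± 9.82 (SD, n = 3). The lines overlapped, and the log2 difference of -0.15 (SE 0.235) did not pass (limma-voom, adjusted p = 0.679, and 0.255 to 0.954 over its alternatives). Of 1317 genes or unnamed events tested, 29.8% passed.

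To set the genes in order, a level per length was taken as the median over a gene's events of counts per nt of effective length, scaled to CPM of that sum over the table. SRPK1 was highest, with a median over the 6 libraries of 12.9 and a range of 9.67 to 15.2, above every value of the next gene. CLK3 (7.29), CLK1 (6.01), CLK2 (4.58), CLK4 (2.90) and SRPK2 (1.49) followed, and each neighbouring pair among these 5 overlapped over the libraries. Events on rarely used junctions lower a gene's median, so the order need not be that of expression. At least 20 counts in every library were reached by 11 of 16 SRPK2 events, 7 of 8 in CLK4 and 12 of 12 in SRPK1. Within single libraries SRPK2 was below CLK4 in 6 of 6, CLK2 was above CLK4 in 4 of 6, CLK1 above CLK2 in 5 of 6 and CLK3 above CLK1 in 5 of 6. By ratio of set medians CLK4 differed most of the 6 genes, from 1.37 to 2.11 in set 1 to between 3.69 and 5.16 in set 2, where it reached the range of CLK2 (3.86 to 4.45). The pooled order is that of the set 1 medians; by set 2 medians CLK4 (4.42) stood above CLK2 (4.13).

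**Figure D4:**
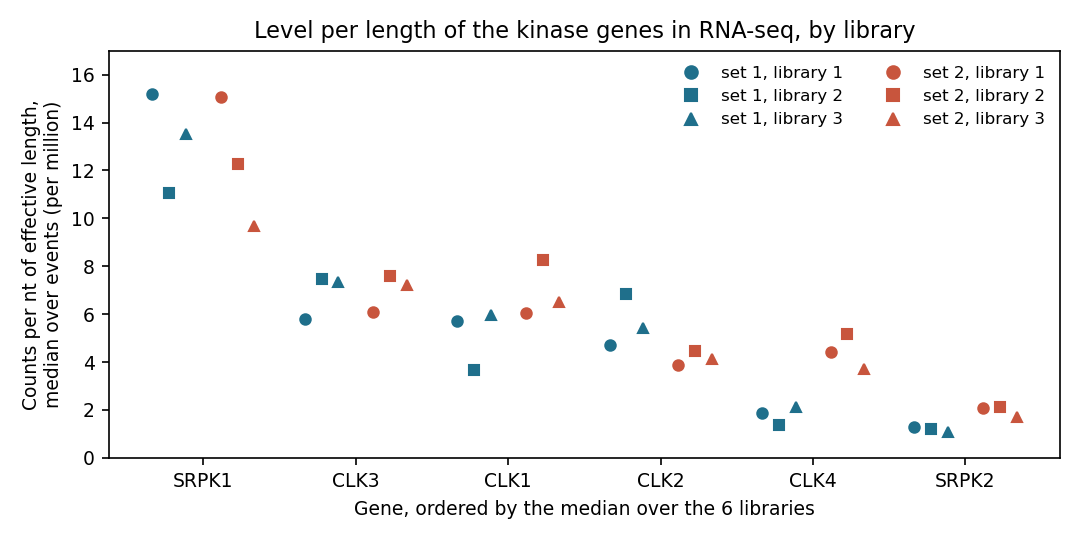
Level per length (y axis, counts per nt of effective length in CPM, median over a gene's events) of the kinase genes in RNA-seq, ordered by the median over 6 libraries, 1 point per library. SRPK1 lies above all others, and CLK4 has the largest ratio between the set medians (1.86 and 4.42).

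Other genes of the pathway were taken as lists. Of 12 SR protein genes with counts, 2 totals lay higher in set 2 and 2 in set 1, with a median log2 ratio of -0.06. For other proteins with arginine-serine domains the counts were 5 and 2 of 21 (median 0.14), for kinases related to CLKs and SRPKs, such as the DYRK and HIPK families, 2 and 0 of 9 (0.25), and for phosphatases, importins and activators 4 and 0 of 9 (0.24). Over all genes 29.3% lay higher in set 2 and 19.1% in set 1, with a median of 0.11. The counts per list depend on the scaling. Under trimmed means of log ratios SRSF2, SRSF3, SRSF6, U2AF1, PPIG, RSRC1 and PPM1G also lay higher in set 1. The sets of SRSF5, LUC7L3, RSRC2, RSRP1 and AKT1, higher in set 2 before, then overlapped. Among alternative exon events of SR protein genes, 6 of 16 lay higher in set 2 and 2 in set 1; for the other arginine-serine proteins it was 4 and 0 of 29, for the related kinases 1 and 1 of 7 and for the last list 3 and 0 of 4. These shares stand against 10.1% and 13.8% over all alternative events. Events of a list can share an exon or a junction: 3 of the 6 are TRA2A events with overlapping exons, and 2 of the last 3 are forms of 1 AKT1 exon with the same skipping counts. A 276 nt exon of TRA2B counts in both directions, higher in set 1 with 1 flanking exon and higher in set 2 with another. Among the 4, SREK1 exons of 2868 and 124 nt have the same skipping counts.

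In RASL-seq the totals of 2 SR protein genes, 7 other arginine-serine genes and 2 related kinases were tested, and 0 of the 11 passed (limma-voom), 0 of them at an unadjusted p under 0.05, against 29.8% called over all totals. Of their 8 tested events, 2 of them on the same SRRM2 exon, 1 was called, against 5.69% of all events tested. The call was for a 63 nt exon of HIPK3 (chromosome 11, 33369712 to 33369774), a nuclear kinase of the DYRK group, named after its values were seen. It stood at 19.7%, 18.2% and 21.2% in PC3E and 32.6%, 40.4% and 38.6% in GS689, without overlap, a rise of 17.5 points (limma-moderated quasi-binomial model, adjusted p = 0.0132). The call was lost with limma on the log2 ratio at a pseudocount of 0.5 (adjusted p = 0.0723), without GS689 replicate 2 (0.0761) and without GS689 replicate 3 (0.0543), out of a range of 0.0123 to 0.0761 over alternatives that were chosen after seeing the data.

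The exons of these lists whose inclusion was most like that of CLK1 exon 4 over the 6 RNA-seq libraries were sought among 56 alternative exon events. They were in ACIN1 (62 nt, Pearson r = 0.94), PNISR (80 nt, 0.79) and DYRK4 (61 nt, 0.77). ACIN1 stood at 42.4%, 31.5% and 44.5% in set 1 and 48.8%, 44.0% and 46.2% in set 2. Without library 2 of set 1 the r of ACIN1 was 0.34 and that of PNISR was -0.55, so both rest on that library, and that of DYRK4 was 0.88. These are descriptions over 6 libraries, given with no p.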

How the data were processed

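The authors deposited 1 table per assay, with counts of the included and skipped form of each exon event. The build is hg19, and the submitters' processing notes name STAR 2.5.2a and kallisto 0.43.0 without saying which made which table; per the labels' protocols, RNA-seq libraries were made with a stranded total RNA kit. Per the file headers, RNA-seq cells hold 3 libraries of an unnamed set, with effective lengths of 102 to 202 for inclusion and 101 for skipping. RASL-seq cells hold a pair of counts, and the first was taken as inclusion, since its share followed RNA-seq inclusion over 1966 events (r = 0.83, across events, which are not independent replicates). Missing cells (0 to 60 events per library) were read as 0. RASL-seq totals ran from 615758 to 954120 counts.

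Of RNA-seq events 95.1% and of RASL-seq events 95.6% matched 1 gene of GENCODE 29, whose build differs, so all positions are those of the files. Processed pseudogenes (CLK2P1, CLK3P2, SRPK2P) have no introns, so reads across joined exons could be shared with them. 0 columns of per-sample values were left unused.

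RASL-seq inclusion was tested with a quasi-binomial model per event (limma 3.58.1 in R 4.3.3, dispersions moderated and held at 1 or above; events averaging 10 counts or more, present in every library, with 10 or more of the rarer form; calls needed an adjusted p (Benjamini-Hochberg) below 0.05 and a 5-point change). Totals were tested with limma-voom scaled by trimmed means of log ratios (at least 10 counts, at the median depth, in 3 libraries and 15 in all). Both were run on simulated data whose spread between libraries was set and not estimated from these data. Calls there needed the adjusted p alone, without the 5-point change. The inclusion model recovered 11.0% of events shifted by 1 and 42.0% of those shifted by 2 (log2 odds) among 1124 events, with 3.64% false calls. The totals model found 84.0% of 2-fold changes over 1310 genes, with 6.67% false calls. Named exons are exon 4 of each CLK gene, alternative exons of the 6 genes, those in RASL-seq and the 3 most like CLK1 exon 4. Members, lists and tests were chosen with earlier results of these data known. The alternatives tried are given at the end.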

Additional observations from a re-analysis of the deposited data

How the results depend on the processing

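Of 99 values under an alternative, 93 kept their direction and their side of the threshold or stayed within the spread, 3 moved and 3 lost a call (HIPK3, given above); 0 called values reversed. Of totals whose sets overlap, the log2 ratio of SRPK1 (-0.14) was 0.01 without set 1 replicate 1 and 0.02 without set 2 replicate 3, and that of CLK3 ran from -0.11 to 0.15 leaving out 1 library, so neither has a direction. SRPK2's total, a log2 ratio of 0.71, was 0.50 with trimmed means of log ratios. The count of exon events whose sets do not overlap, 7, was 2 with sets at least 5 points apart, both of CLK2 exon 4, 5 without length correction, 6 at 50 counts or more in every library, and 7 to 8 leaving out 1 library. Genes whose totals do not overlap numbered 4 throughout. Neighbours in the order of levels that do not overlap numbered 1, and 1 to 2 leaving out 1 library; it was 2 without library 2 of set 1, when CLK1 also lay clear of CLK2. The CLK3 total in RASL-seq had a log2 difference of -0.38 to -0.03 leaving out 1 library, and the CLK3 inclusion difference was -0.82 to 0 points. With the replicate number as a block the CLK3 total gave -0.15 (adjusted p = 0.64); same-numbered libraries correlated at 0.27, 0.17 and -0.01 in their deviations, so the numbers were not taken as pairing, and not every library correlated best with its own number. The block called 461 of 1317 totals, against 393 without it (245 of 905 from skipping counts alone, 261 of 973 from inclusion counts alone, 261 of 1287 without GS689 replicate 1), and 88 of 1124 inclusion events, against 64. Limma on the log2 ratio called 25 events at a pseudocount of 0.5 and 47 at 5. No alternative could test CLK3 inclusion, since 1 skipping count fails every filter, and skipping counts alone gave no CLK3 total. Depth limits the 836 nt CLK4 exon and the 96 nt SRPK1 exon most.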

Other observations

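Among the pathway lists in RNA-seq, the exons and totals below were picked after their values were seen, and are given as values with no test. An 84 nt exon near the 5′ end of AKT1, a kinase known to act upstream of SRPKs, had a median inclusion of 32.9% in set 1 and 68.1% in set 2, with 11.5 points between the nearest libraries; a 178 nt form of the same exon gave 34.3% and 67.6%. A 301 nt exon of the SR-like protein gene TRA2A stood at 40.7% and 69.2% in one event, which rests on 21 to 40 counts per library, and at 6.85% and 9.81% in another, and a 268 nt exon of SRSF6 at 8.58% and 21.6%. Totals of the dual-specificity kinase DYRK3 were 0.932 to 1.70 CPM in set 1 and 3.84 to 4.08 in set 2. TNPO1, an importin, had 165 to 312 in set 1 and 415 to 608 in set 2. In both sets its spread was wide, and library 2 of set 1 was the lowest for DYRK3 and TNPO1 alike. Totals of TNPO3, the other importin of the lists, overlapped, with 149 to 165 CPM in set 1 and 153 to 191 in set 2.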
